A study of Mus with 7 samples.

Results

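The 5 NF-κB subunits (Nfkb1, Nfkb2, Rel, Rela and Relb) and 5 members of the IκB family (Nfkbia, Nfkbib, Nfkbid, Nfkbie and Nfkbiz) were followed in fetal liver-derived macrophages (FLMs) given lipopolysaccharide (LPS) after docosahexaenoic acid (DHA) or vehicle. The 10 genes were chosen by their symbols, and all 10 were found among the 31053 genes in the files. FLMs are self-renewing macrophages grown from livers of C57BL/6J mouse fetuses, with 30 ng/mL GM-CSF in the medium throughout. Con cells were kept in 10% fetal bovine serum and received no treatment. Cells of the other 6 groups spent 24 h in 0.25% serum with 25 µM DHA on 8.3 µM bovine serum albumin (DHA), or with 8.3 µM albumin alone (Veh). Veh.LPS.0 and DHA.LPS.0 were collected at that point. Cells of Veh.LPS.1, DHA.LPS.1, Veh.LPS.4 and DHA.LPS.4 then received 20 ng/mL LPS, diluted in reduced-serum medium, and were collected after 1 or 4 h.

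NF-κB is a family of dimers built from these 5 subunits. In a resting macrophage the dimers are held in the cytoplasm by the classical IκB proteins IκBα (Nfkbia), IκBβ (Nfkbib) and IκBε (Nfkbie). LPS acts through TLR4 on the IκB kinase complex, which marks the classical IκBs for degradation, so that the dimers enter the nucleus and transcribe inflammatory genes, among them genes of their own inhibitors. The atypical IκBs, IκBNS (Nfkbid) and IκBζ (Nfkbiz), act in the nucleus, where they shape which target genes are transcribed. The measurements here are of messenger RNA, and neither IκB protein nor the nuclear entry of a subunit was measured by them.

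Each of the 7 conditions was a single droplet library, so no difference between conditions had a replicate check, and no test was made. After the study's own filter on cells (over 20000 molecules, at least 2000 genes and under 20% of molecules from mitochondrial genes), 11640 cells remained, from 692 in DHA.LPS.4 to 3073 in Veh.LPS.1. A molecule was counted by its unique molecular identifier (UMI), and the median cell held 29369 to 56239 UMIs. The filter left out very different shares of the libraries: 20% or more of the UMIs were mitochondrial in 29.0% of the barcodes of Con, in 35.8% to 54.7% of those of Veh and in 74.4% to 80.0% of those of DHA. Between 0 and 4 barcodes of the remaining cells were shared by any pair of libraries. All 9 macrophage markers had UMIs in every library, summing to 5817 to 7089 UMIs per 1000000 UMIs. Mast cell markers were at 0 in all 7 libraries, and the lists for erythroid, stromal, dendritic and lymphoid cells summed to at most 1.03 on this scale. Neutrophil markers summed to 0.0571 to 6.99 with S100a9 and Ly6g at 0, while S100a8 had UMIs in 0.287% of DHA.LPS.0 and 9.39% of DHA.LPS.4 cells. Hepatocyte markers summed to 5.48 to 7.66 with Alb and Ttr at 0. The most widespread hepatocyte marker of each library had UMIs in 10.4% to 18.4% of cells, and in DHA.LPS.4 it was Afp, at 13.3%.

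Levels are given as CPM, the UMIs of a gene per 1000000 UMIs of its library's cells, with exact Poisson 95% intervals. Ratios of CPM carry exact binomial (Clopper-Pearson) 95% intervals. Both intervals cover counting error only. Size alone decided whether a member was called higher or lower: its ratio had to pass 1.5-fold, and a UMI had to be present in 25% or more of the cells in 1 of the 2 libraries. No replicate spread enters this, and the share of all genes past the same limits is given for each comparison where the members are first counted. Libraries are used in several comparisons each, so counts from comparisons with a common library are not independent.

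The largest difference of any member lay in Nfkbiz. The gene spans chr16:55811375-55838954 in the GRCm38 (mm10) assembly. It was measured at 3.25 CPM in Con, 6.75 in Veh.LPS.0, 6.65 in DHA.LPS.0, 510 in Veh.LPS.1, 411 in DHA.LPS.1, 185 in Veh.LPS.4 and 128 in DHA.LPS.4. All 4 LPS libraries stood far above the 3 without LPS, and those at 1 h above those at 4 h. The only neighbours in this order with overlapping intervals were DHA.LPS.0 and Veh.LPS.0. Relative to Veh.LPS.0 the ratio was 75.5 (70.0 to 81.6) at 1 h and 27.5 (25.4 to 29.7) at 4 h. With DHA it was 61.8 (54.3 to 70.6) and 19.2 (16.8 to 22.0) relative to DHA.LPS.0.

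Nfkbid, for the other atypical IκB, spans chr7:30421731-30428749. Its level was 12.5 CPM in Con, 8.03 in Veh.LPS.0, 5.68 in DHA.LPS.0, 108 in Veh.LPS.1, 95.9 in DHA.LPS.1, 22.9 in Veh.LPS.4 and 21.2 in DHA.LPS.4. The gene was thus highest at 1 h. In CPM its 4 h levels lay closer to those without LPS than to those at 1 h. On the log2 scale DHA.LPS.4 lay nearly midway, at 1.90 relative to DHA.LPS.0 and -2.18 relative to DHA.LPS.1. Veh.LPS.4 and DHA.LPS.4 had overlapping intervals. The ratio to the library without LPS was 13.5 (12.6 to 14.5) at 1 h and 2.85 (2.61 to 3.12) at 4 h in Veh, and 16.9 (14.6 to 19.6) and 3.74 (3.16 to 4.43) with DHA. Its level at 4 h was 0.211 of that at 1 h in Veh and 0.221 with DHA.

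Nfkbia (chr12:55489409-55492647) encodes IκBα, the inhibitor that is degraded and made anew within the NF-κB feedback loop. It was at 164 CPM in Con, 221 in Veh.LPS.0, 233 in DHA.LPS.0, 1503 in Veh.LPS.1, 1522 in DHA.LPS.1, 1002 in Veh.LPS.4 and 944 in DHA.LPS.4. Veh and DHA lay close to each other at every hour, and at 1 h their intervals overlapped. The ratio to the library without LPS was 6.80 (6.71 to 6.90) at 1 h and 4.53 (4.46 to 4.61) at 4 h in Veh, and 6.54 (6.38 to 6.69) and 4.05 (3.95 to 4.16) with DHA.

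The 2 other classical IκBs had a later course. Nfkbib (chr7:28758251-28766644), for IκBβ, was at 25.5 CPM in Con, 35.9 in Veh.LPS.0, 35.4 in DHA.LPS.0, 71.9 in Veh.LPS.1, 63.0 in DHA.LPS.1, 131 in Veh.LPS.4 and 121 in DHA.LPS.4. Nfkbie (chr17:45555700-45563169), for IκBε, was at 5.96 CPM in Con, 13.0 in Veh.LPS.0, 11.1 in DHA.LPS.0, 13.3 in Veh.LPS.1, 15.1 in DHA.LPS.1, 22.2 in Veh.LPS.4 and 25.3 in DHA.LPS.4. Both were highest at 4 h, where the atypical IκBs and Nfkbia were below their 1 h levels. In Veh, Nfkbib was 2.01-fold (1.93 to 2.09) higher at 1 h and 3.64-fold (3.50 to 3.79) higher at 4 h than without LPS. Nfkbie was the only member with no difference past 1.5-fold at 1 h in either Veh (ratio 1.03, 0.951 to 1.11) or DHA (1.37, 1.19 to 1.57), and its ratio at 4 h was 1.71 (1.58 to 1.85) in Veh and 2.29 with DHA, or 1.19 (1.00 to 1.38) on the log2 scale. Nfkbib shares its locus with Ccer2, which had 15 UMIs over the 7 libraries.

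Among the subunits, Nfkb1 and Nfkb2 encode precursors, p105 and p100, that are processed to the DNA-binding subunits p50 and p52 and that hold back other subunits while unprocessed. Nfkb1 (chr3:135584655-135691969) was at 57.0 CPM in Con, 50.1 in Veh.LPS.0, 44.1 in DHA.LPS.0, 124 in Veh.LPS.1, 114 in DHA.LPS.1, 311 in Veh.LPS.4 and 256 in DHA.LPS.4. Nfkb2 (chr19:46300994-46312400) was at 11.9, 19.6, 16.2, 30.3, 24.3, 84.4 and 75.3 CPM in the same order. Both were higher at 1 h than at 0 h and higher again at 4 h, with no overlap of intervals between any neighbouring levels. The ratio to Veh.LPS.0 was 2.48 (2.40 to 2.57) at 1 h and 6.22 (6.02 to 6.42) at 4 h for Nfkb1, and 1.54 (1.46 to 1.63) and 4.30 (4.08 to 4.53) for Nfkb2. Relative to DHA.LPS.0 it was 2.58 and 5.80 for Nfkb1, and 4.64 at 4 h for Nfkb2, whose ratio at 1 h (log2 0.58) lay just under the limit. Nfkb2 overlaps Psd, which had 513 UMIs over the 7 libraries, and 4833438C02Rik, and Nfkb1 overlaps Gm46827.

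Rel, Rela and Relb encode the subunits with a transactivation domain, c-Rel, p65 and RelB. Rel (chr11:23736847-23770969) was at 35.8 CPM in Con, 41.5 in Veh.LPS.0, 33.4 in DHA.LPS.0, 161 in Veh.LPS.1, 123 in DHA.LPS.1, 127 in Veh.LPS.4 and 93.3 in DHA.LPS.4. By library totals it was highest at 1 h, with a ratio to Veh.LPS.0 of 3.88 (3.75 to 4.01). At 4 h this ratio was 3.07 (2.96 to 3.19). The intervals of DHA.LPS.1 and Veh.LPS.4 overlapped, as did those of DHA.LPS.0 and Con. Rela (chr19:5637442-5648134) had 21.0 CPM in Con, 19.1 in Veh.LPS.0, 17.9 in DHA.LPS.0, 46.3 in Veh.LPS.1, 44.7 in DHA.LPS.1, 28.4 in Veh.LPS.4 and 35.7 in DHA.LPS.4. Rela, the transactivating partner of the most common NF-κB dimer, spanned the narrowest range of the 10 members, with a highest level 2.59 times its lowest. Relb (chr7:19606217-19629438) had 12.3 CPM in Con, 23.1 in Veh.LPS.0, 20.0 in DHA.LPS.0, 51.0 in Veh.LPS.1, 44.6 in DHA.LPS.1, 38.5 in Veh.LPS.4 and 50.1 in DHA.LPS.4. Scaled by library totals, Rela and Relb in Veh were lower at 4 h than at 1 h, while Relb with DHA was not. The intervals of Relb in DHA.LPS.4 and Veh.LPS.1 overlapped. The log2 ratio of Veh.LPS.4 to Veh.LPS.1 was -0.70 for Rela, -0.41 for Relb and -0.34 for Rel. With DESeq2 size factors in place of totals these values were -0.37, -0.08 and -0.00, so the drops of Relb and Rel depended on the scaling.

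**Figure D1:**
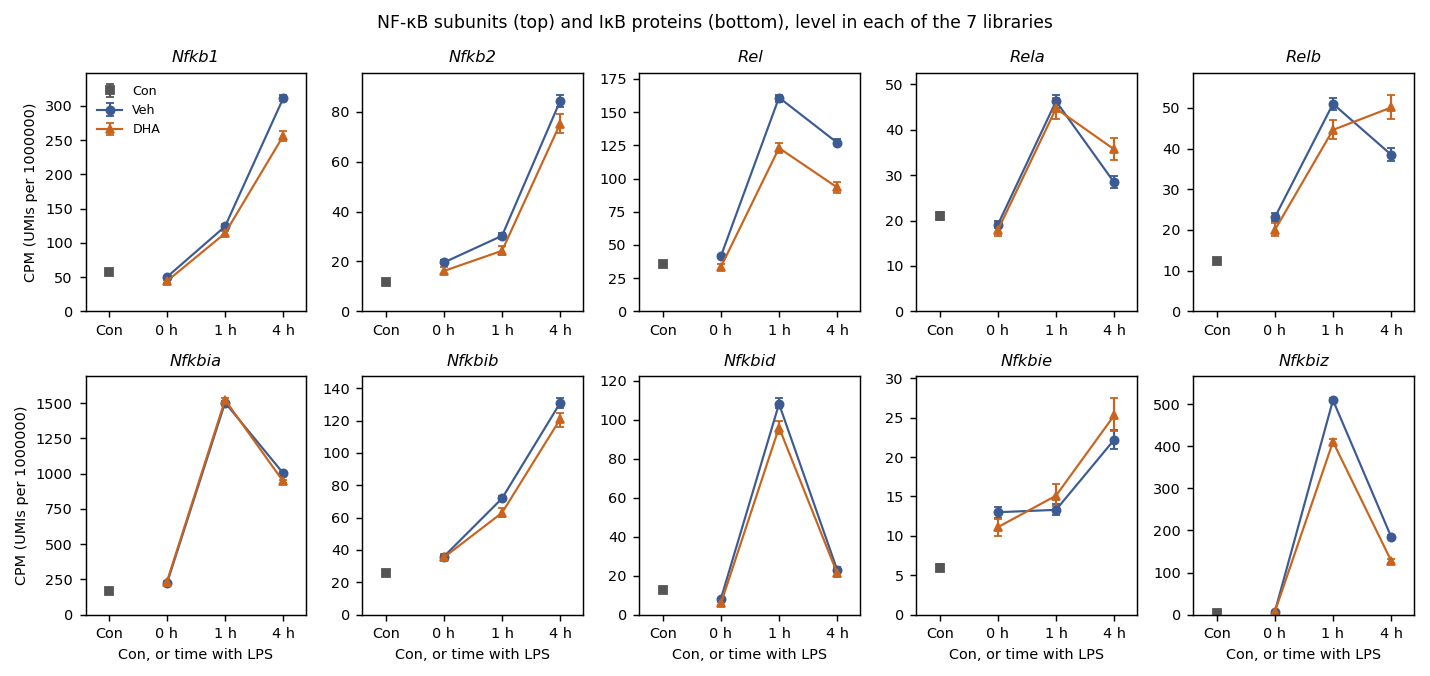
Level of each member in CPM (UMIs per 1000000 UMIs, vertical axis from 0, with its own scale in each panel) in Con and at 0, 1 and 4 h of LPS, for Veh (circles) and DHA (triangles), 1 library per point. Error bars are exact Poisson 95% intervals; Nfkbiz, Nfkbid and Nfkbia peak at 1 h, while Nfkb1, Nfkb2, Nfkbib and Nfkbie are highest at 4 h.

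Counted over the members, 9 of 10 were higher in Veh.LPS.1 than in Veh.LPS.0, where 4.15% of the 8089 genes that passed the limit on cells were higher. No member was lower, against 4.24% of genes. With trimmed-mean (TMM) factors in place of library totals these shares of genes were 4.97% and 3.19%, and 9 members were higher. The median log2 ratio of the members was 1.29, and that of all these genes was -0.10. With DHA, 8 of 10 members were higher at 1 h than at 0 h, Nfkb2 and Nfkbie being the others, and 0 were lower, beside 4.66% and 4.97% of genes, or 5.69% and 3.47% with TMM factors, when Nfkb2 was higher too. The median log2 ratio of the members was 1.34. Nfkbiz in Veh.LPS.0 had UMIs in 20.9% of cells and Nfkbid just under 25%, so that both passed the limit on cells in Veh through the LPS libraries alone, as Nfkbid did with DHA.

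At 4 h, 9 of 10 members were higher in Veh relative to 0 h, with Rela at a ratio of 1.49 (1.39 to 1.59), and 0 were lower. Of all genes, 10.2% were higher and 38.3% lower in this comparison. With DHA all 10 members were higher at 4 h than at 0 h and 0 were lower, beside 9.64% of genes higher and 33.6% lower. As at 1 h, Nfkbiz and Nfkbid passed the limit on cells in Veh through the LPS library alone. With DHA, Nfkbid did so too, at 22.8% of DHA.LPS.0 cells and 42.2% of DHA.LPS.4 cells. Their calls were thus favoured by the limit. The median log2 ratio of the members was 1.74 in Veh and 1.84 with DHA. The all-gene median at 4 h of LPS depends on the scaling. Scaled by library totals, it was -0.36 for Veh.LPS.4 over Veh.LPS.0, and with TMM factors 0.04, a shift of 0.40 on the log2 scale. With TMM factors 20.1% of genes were higher and 22.2% lower in that comparison, and Rela passed the limit too, so that 10 of 10 members were higher. With DHA these shares became 19.4% and 20.1%.

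The members parted between 1 and 4 h. In Veh, 4 of 10 were higher at 4 h than at 1 h, namely Nfkb1 at a ratio of 2.50 (2.44 to 2.56), Nfkb2 at 2.79 (2.66 to 2.92), Nfkbib at 1.82 (1.76 to 1.88) and Nfkbie at 1.66 (1.54 to 1.80). Another 4 were lower, namely Nfkbid at 0.211 (0.200 to 0.224), Nfkbiz at 0.364 (0.356 to 0.371), Rela at 0.615 (0.581 to 0.650) and Nfkbia at 0.667 (0.660 to 0.673). Of all genes, 7.98% were higher and 29.3% lower. With TMM factors 15.7% of genes were higher and 17.3% lower, and Rela and Nfkbia were then within the limit, leaving 2 members lower and the same 4 higher. With DHA the same 4 members were higher at 4 h than at 1 h, beside 6.97% of genes. There, 3 members were lower (Nfkbia, Nfkbid and Nfkbiz), beside 23.3% of genes, of which Nfkbia was within the limit with TMM factors, where 13.0% of genes were higher and 14.3% lower. The subunit precursors and the slower classical IκBs were thus the late members, in Veh and with DHA. The atypical IκBs were lower at 4 h than at 1 h under both scalings. The counts of lower members lay near the shares of all genes that were lower, so they do not set the members apart.

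**Figure D2:**
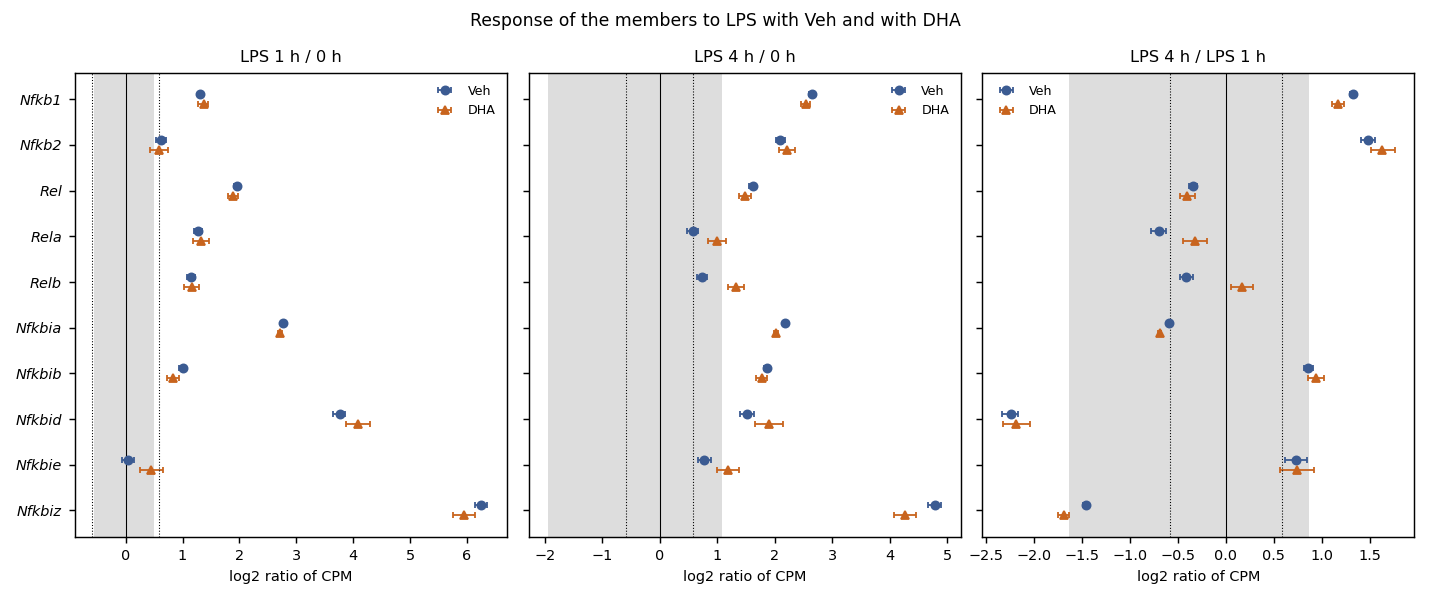
Log2 ratio of CPM for each member (rows) at 1 h over 0 h, 4 h over 0 h and 4 h over 1 h of LPS, in Veh (circles) and with DHA (triangles); bars are exact binomial 95% intervals, which cover counting error only. The grey band holds the 5th to 95th percentile of genes in Veh and the dotted lines mark 1.5-fold; Nfkbiz lies at 6.24 in Veh at 1 h, and Nfkb1, Nfkb2, Nfkbib and Nfkbie lie to the right of the dotted line in the 4 h over 1 h panel.

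The change of serum before LPS went with differences of some members. In Veh.LPS.0, 3 of the 9 members that passed the limit on cells were higher than in Con, where 9.31% of genes were higher: Nfkbie at a ratio of 2.17 (1.98 to 2.38), Relb at 1.88 (1.76 to 2.01) and Nfkb2 at 1.66 (1.55 to 1.77). Nfkbid was lower, at 0.644 (0.590 to 0.702), beside 7.76% of genes. Nfkbie passed the limit on cells through Veh.LPS.0 alone, with a UMI in 36.0% of its cells and in 20.5% of Con cells. Nfkbid passed through Con alone, with a UMI in 38.8% of Con cells and a share just under the limit in Veh.LPS.0. The calls of Nfkbie and Nfkbid were thus favoured by the limit. Nfkbiz had a ratio of 2.08 (1.83 to 2.35) but too few cells with a UMI to be counted. The remaining 5 members had ratios between 0.879 for Nfkb1 and 1.41 for Nfkbib. Veh.LPS.0 differed from Con in serum, albumin and a further 24 h of culture, which cannot be told apart.

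In the kept cells and scaled by library totals, no member passed 1.5-fold between DHA and Veh at any hour, in either direction. Without LPS this was 0 of 9 members, beside 1.08% of genes higher and 0.949% lower. At 1 h it was 0 of 10, beside 1.33% higher and 1.73% lower. At 4 h it was 0 of 10, beside 2.22% higher and 2.42% lower. With TMM factors 1 member, Nfkbiz, was lower at 4 h, beside 1.53% of genes higher and 2.89% lower. With so few genes past the limit, a count of 0 does not set the members apart from other genes. The median log2 ratio of the members was -0.18, -0.18 and -0.11 at 0, 1 and 4 h, and that of all genes -0.05, -0.05 and 0.08.

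Several smaller differences were wider than the counting error. Rel had a DHA to Veh ratio of 0.805 (0.753 to 0.859) without LPS, 0.765 (0.739 to 0.793) at 1 h and 0.732 (0.697 to 0.769) at 4 h. A lower ratio than that of Rel was found for 7.73%, 5.76% and 3.56% of genes at 0, 1 and 4 h. The ratio of Rel was below 1 at all 3 hours under every alternative run. Nfkbiz had a ratio of 0.985 (0.845 to 1.15) without LPS, 0.806 (0.790 to 0.821) at 1 h and 0.688 (0.660 to 0.717) at 4 h, where 2.75% of genes had a lower one. At 1 h 8.96% of genes had a lower ratio than Nfkbiz. With TMM factors the ratio of Nfkbiz at 4 h passed the limit, so that 1 member was lower. The 3 hours are separate libraries, and whether the ratio of either gene differed between hours was not tested.

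Relb and Rela lay on the other side at 4 h. Relb was 1.30-fold (1.21 to 1.40) higher with DHA than in Veh, after ratios of 0.865 (0.794 to 0.942) without LPS and 0.874 (0.823 to 0.927) at 1 h. Rela was 1.26-fold (1.15 to 1.37) higher at 4 h, after 0.935 (0.853 to 1.02) and 0.966 (0.910 to 1.03), whose intervals include 1. The higher value of Relb held under every alternative run, while that of Rela turned to a log2 ratio of -0.10 when all deposited barcodes were counted.

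Of the remaining members, Nfkb1 had DHA to Veh ratios of 0.881, 0.914 and 0.823 at 0, 1 and 4 h, whose 1 h value turned to a log2 ratio of 0.05 with all deposited barcodes. Nfkb2 was at 0.826, 0.803 and 0.892, below 1 under every alternative run. Nfkbib had ratios of 0.986 (0.924 to 1.05), 0.875 and 0.925, and with all deposited barcodes its log2 ratios were -0.43, -0.62 and -0.58. Nfkbia, the canonical target of NF-κB among the inhibitors, was at 1.05 (1.03 to 1.08), 1.01 (1.00 to 1.02) and 0.942 (0.927 to 0.957), and with all deposited barcodes its log2 ratios were -0.25, -0.37 and -0.56. Nfkbid was at 0.708 (0.603 to 0.828), with under 25% of cells holding a UMI in either library without LPS. With LPS it was at 0.885 at 1 h and 0.926 (0.832 to 1.03) at 4 h, where the interval includes 1. Its ratios were again below 1 under every alternative run. Nfkbie was at 0.855, 1.14 and 1.14, of which both LPS values turned below 1 with all deposited barcodes. The barcodes left out by the filter were 3075, 3600 and 5030 in the DHA libraries and 1980, 2632 and 1450 in Veh, and the part of this imbalance in the differences between DHA and Veh was not tested.

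**Figure D3:**
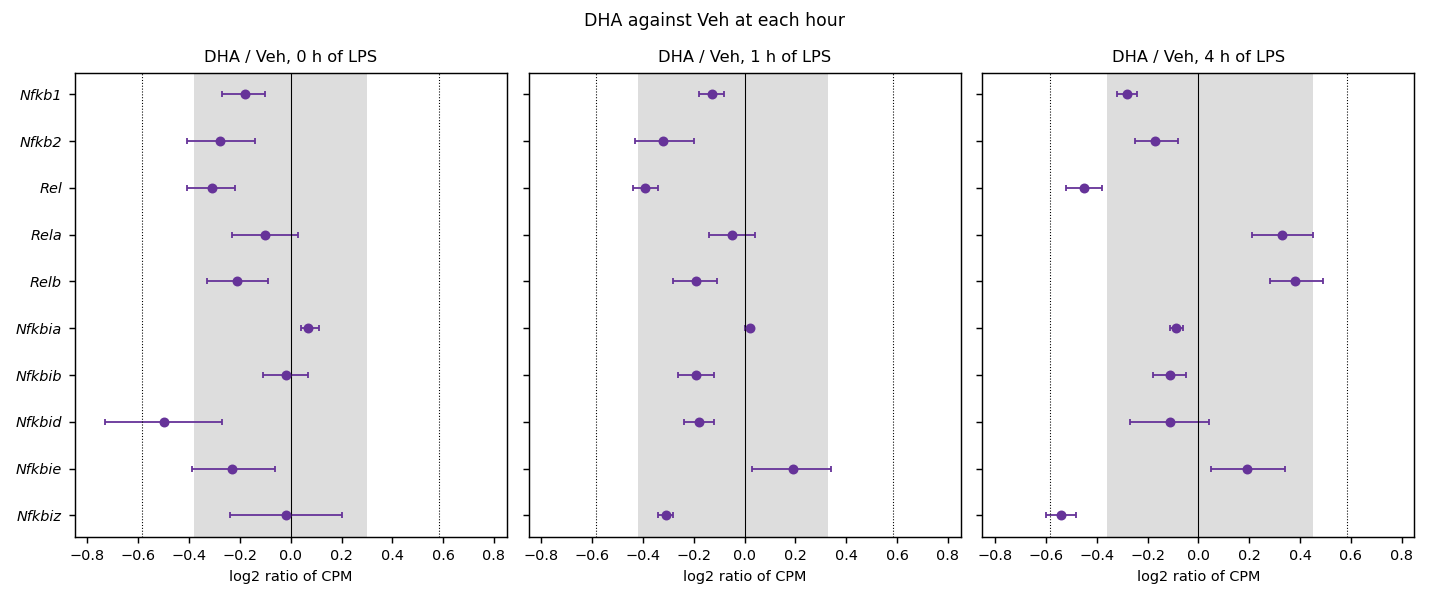
Log2 ratio of CPM, DHA over Veh, for each member at 0, 1 and 4 h of LPS, with exact binomial 95% intervals that cover counting error only. The grey band holds the 5th to 95th percentile of genes and the dotted lines mark 1.5-fold; no counted member lies outside the dotted lines, and at 4 h Rel (-0.45) and Nfkbiz (-0.54) lie left of the band.

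The response to LPS was also compared between Veh and DHA as the log2 ratio to 0 h with DHA minus that in Veh. The 2 responses are computed from 4 separate libraries, and the differences have no test. For 7 of the 10 members at 1 h and 5 at 4 h the difference was at most 0.20 in size. At 4 h the largest were 0.59 for Relb (1.32 with DHA and 0.73 in Veh), -0.52 for Nfkbiz (4.26 and 4.78), 0.43 for Rela (1.00 and 0.57) and 0.42 for Nfkbie (1.19 and 0.77). At 1 h the largest were 0.41 for Nfkbie (0.45 and 0.04) and 0.32 for Nfkbid (4.08 and 3.76).

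The levels were next taken apart into cells, each thinned at random to 20000 UMIs so that libraries of unequal depth could be set side by side. The libraries hold no second cell type that lacks these genes, so background from free RNA was not measured. Before LPS a UMI of Nfkbiz was found in 11.9% (10.6 to 13.2) of Veh.LPS.0 cells and 12.5% (10.1 to 15.1) of DHA.LPS.0 cells. After 1 h it was found in 99.0% (98.6 to 99.3) of Veh and 97.2% (95.8 to 98.3) of DHA cells, and after 4 h in 83.0% (80.5 to 85.3) and 79.3% (76.1 to 82.3). Without thinning these shares were 20.9%, 25.8%, 99.4%, 98.7%, 95.3% and 87.3%. Intervals of shares are exact binomial (Clopper-Pearson). At 1 h nearly every barcode of either library thus held a UMI of Nfkbiz, and how many of these UMIs came from free RNA was not measured.

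The number of UMIs per thinned cell also differed with LPS. The median cell held 10 UMIs of Nfkbiz in Veh.LPS.1 and 7 in DHA.LPS.1, with 3 and 2 at 4 h and 0 in the libraries without LPS. At least 5 UMIs of Nfkbiz were found in 85.6% of Veh and 75.7% of DHA cells at 1 h, and in 30.2% and 17.2% at 4 h. For Nfkbia the median was 29 UMIs in both libraries at 1 h, with the 10th and 90th percentiles at 17 and 44 in Veh and at 16 and 45 with DHA. The whole distribution of Nfkbia had moved, since the median without LPS was 3 in Veh and 4 with DHA.

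Rel and Nfkb1 were sparser in single cells. At least 5 UMIs of Rel were found in 25.5% of Veh and 15.8% of DHA cells at 1 h and in 15.6% and 7.23% at 4 h. For Nfkb1 these shares were 13.8% and 10.8% at 1 h and 67.5% and 55.3% at 4 h. For both genes the DHA library held fewer such cells at each hour of LPS.

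Counts of Nfkbia and Nfkbiz varied between cells by more than the sampling of molecules. The variance of the UMIs of Nfkbia per thinned cell was 2.79 times the mean in Con, 3.44 in Veh.LPS.0 and 3.39 in DHA.LPS.0, 3.84 in Veh.LPS.1 and 4.40 in DHA.LPS.1, and 5.94 in Veh.LPS.4 and 4.51 in DHA.LPS.4. For Nfkbiz it was 2.80 and 2.79 at 1 h and 3.45 and 3.13 at 4 h, in Veh and DHA. Sampling of molecules alone gives a value of 1. Rela came close to that value, at 0.980 to 1.10 over the 7 libraries. This measure grows with the mean, so the SD divided by the mean is given too. For Nfkbia it was 0.358 and 0.383 at 1 h and 0.547 and 0.490 at 4 h, in Veh and DHA. For Nfkbiz it was larger, at 0.527 and 0.591 at 1 h and 0.982 and 1.10 at 4 h. It was thus higher at 4 h than at 1 h for both genes and in both treatments. Sampling of molecules alone raises this measure as the mean falls. In Veh the mean fell from 29.9 UMIs at 1 h to 19.9 at 4 h for Nfkbia, and from 10.1 to 3.58 for Nfkbiz. With DHA it fell from 30.0 to 18.8 and from 7.98 to 2.57. The part of sampling in these differences was not tested.

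**Figure D4:**
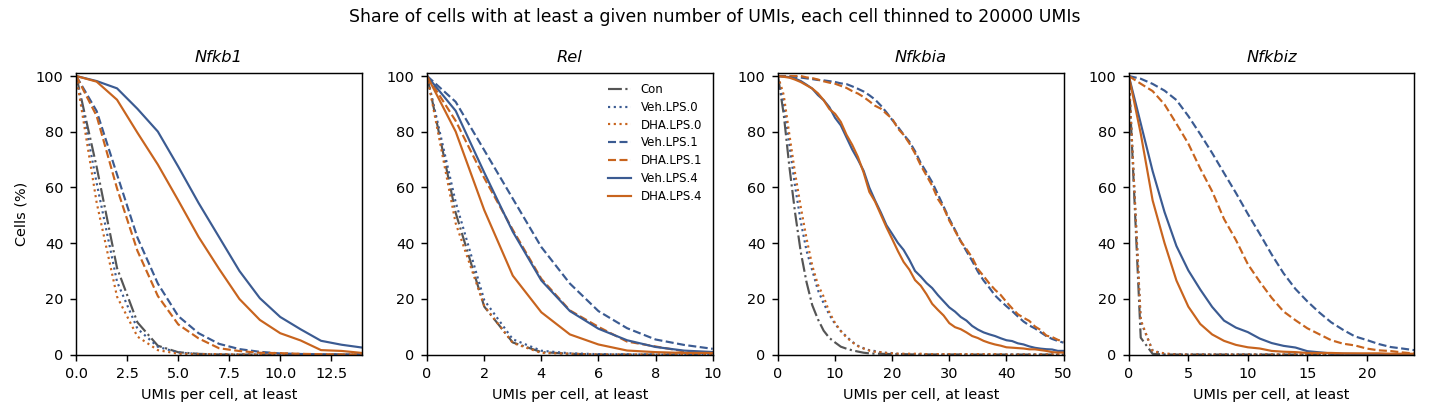
Share of cells (vertical axis, percent) with at least a given number of UMIs (horizontal axis) of Nfkb1, Rel, Nfkbia and Nfkbiz, each cell thinned to 20000 UMIs. Line colour gives Con, Veh (blue) or DHA (orange) and line style the hour of LPS; for Nfkbia the Veh and DHA lines lie together at 1 h, and for Nfkbiz the DHA lines lie left of the Veh lines at 1 and 4 h.

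More members were found together in a cell with LPS. A thinned cell held UMIs of 3.59 to 4.07 of the 10 members on average in the libraries without LPS and of 6.81 to 7.15 in those with LPS. Nfkbia and Nfkbiz were found together in 10.9% of Veh.LPS.0 cells, and in 99.0% and 82.9% of Veh and 97.2% and 79.3% of DHA cells at 1 and 4 h. All 5 subunits were found together in 0.550% to 1.33% of cells without LPS and in 10.4% to 17.2% with LPS.

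Within each library with LPS, cells with more Nfkbia tended to have more Nfkbiz. Spearman's rho between their UMIs over thinned cells was 0.27 in the 3073 cells of Veh.LPS.1, 0.28 in the 795 of DHA.LPS.1, 0.41 in the 993 of Veh.LPS.4 and 0.35 in the 692 of DHA.LPS.4. It was 0.09 in Veh.LPS.0, 0.02 in DHA.LPS.0 and 0.00 in Con, where Nfkbiz was mostly at 0. Between Nfkbia and Tnf, a cytokine gene driven by NF-κB, rho was 0.36 in Veh.LPS.0, 0.37 and 0.35 at 1 h and 0.48 and 0.47 at 4 h, for Veh and DHA. Between Nfkbiz and Tnf it was 0.35 and 0.36 at 1 h and 0.47 and 0.45 at 4 h. Rel and Nfkbiz gave 0.31 and 0.30 at 1 h and 0.29 and 0.20 at 4 h. Relb was nearly unrelated to these genes, with rho to Nfkbiz of 0.05 to 0.11 and to Tnf of 0.03 to 0.06 in the LPS libraries. The points share a library and its free RNA, and counts of the sparser genes lower rho, so these values describe the cells measured. The rho of Nfkbiz with the mitochondrial share of the cell lay between -0.16 and -0.05 in the LPS libraries, and that with its depth before thinning between -0.04 and 0.10.

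Across the 7 libraries the members followed different genes. In all, 6850 genes, the members included, were detected in 50% or more of the cells of some library. Among those outside the members, the 3 with the highest Pearson's r of log2(CPM + 1) with Nfkbia were Tnf (r = 0.998), Ier3 and Dusp5. The same 3 led for Nfkbiz, with r = 0.996 for Tnf. Nfkbid was most like Pcf11 (r = 0.997), Taf7 and Ier2. Rel was most like Sowahc (r = 0.997), Mir155hg and Bcl2l11. The late members had other neighbours: Csf2ra (r = 0.999), Pdgfb and Slc15a3 for Nfkb2, Rc3h1 (r = 0.996), Tlr2 and Wipf2 for Nfkb1, and Ehd1 (r = 0.994), Dcbld2 and Csf3 for Nfkbib. Nfkbie was most like Car13 (r = 0.992), Aoah and Sema4d. Rela was most like Mob4 (r = 0.995), and the lowest of these leading values was that of Relb with Bsdc1 (r = 0.980). With 7 points of which 4 had LPS, such values of r describe only how closely the levels varied together across these libraries.

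Lists of other pathway genes were counted by the same limits, and the all-gene shares of each comparison are repeated beside them. Of 10 kinases and partners upstream of the IκBs, 8 passed the limit on cells at 1 h in Veh (4.15% of genes higher and 4.24% lower), of which Ikbke was higher (15.3 CPM in Veh.LPS.0 and 30.8 in Veh.LPS.1) and Map3k14, the kinase of the alternative pathway through p100, lower (9.93 and 6.04). At 4 h the same 2 of 8 were past the limit, with Ikbke at 49.8 CPM and Map3k14 at 4.37, beside 10.2% of genes higher and 38.3% lower. At both hours Map3k14 passed the limit on cells through Veh.LPS.0 alone, so its call was favoured by the limit. With TMM factors Tab2 (log2 ratio 0.87) and Tbk1 (0.66) were higher as well, which made 3 higher and 1 lower, beside 20.1% and 22.2% of genes. The core kinase subunits Chuk, Ikbkb and Ikbkg had log2 ratios of 0.09, 0.33 and -0.08 at 1 h and -0.06, 0.10 and 0.11 at 4 h in Veh, scaled by totals. With TMM factors their 4 h values were 0.34, 0.50 and 0.51. With DHA, 1 of 9 was higher and 2 lower at 1 h (4.66% and 4.97% of genes), and 2 of 9 were higher and 2 lower at 4 h (9.64% and 33.6%). The 2 lower at each hour were Tab1 and Map3k14. Both passed the limit on cells through DHA.LPS.0 alone, so these calls were favoured by the limit. With TMM factors 2 kinases were higher and 2 lower at 1 h, beside 5.69% and 3.47% of genes. At 4 h with TMM factors 3 were higher and 1 lower, beside 19.4% and 20.1%.

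Of 13 genes for ubiquitin ligases and the degradation of IκB, 1 of 11 was higher at 1 h in Veh, Birc3 (23.2 CPM in Veh.LPS.0 and 38.5 in Veh.LPS.1), and 0 were lower, beside 4.15% and 4.24% of genes. With TMM factors 2 were higher and 0 lower, beside 4.97% and 3.19% of genes. At 4 h Traf2 was higher and Rbck1, Btrc and Sharpin were lower, of 13, beside 10.2% and 38.3% of genes. Their median log2 ratio at 4 h was -0.29 beside the all-gene median of -0.36, and it became 0.11 with TMM factors. Those factors left Rbck1 as the 1 gene lower, with 2 higher, beside 22.2% and 20.1% of genes. With DHA, 1 of 13 was higher and 0 lower at 1 h, beside 4.66% and 4.97% of genes. At 4 h with DHA the balance turned with the scaling. By totals 1 was higher and 5 lower with a median log2 ratio of -0.03, beside 9.64% and 33.6% of genes, and with TMM factors 3 were higher and 2 lower with a median of 0.30, beside 19.4% and 20.1%. Of 5 other IκB-like proteins and coactivators, 0 of 4 were past the limit at 1 h in Veh, beside 4.15% of genes higher and 4.24% lower. At 4 h Bcl3, another atypical IκB (3.37 CPM in Veh.LPS.0 and 7.08 in Veh.LPS.4), and Nfkbil1 (90.7 and 160) were higher, of 5, beside 10.2% of genes. Bcl3 passed the limit on cells through Veh.LPS.4 alone. With TMM factors 3 of 5 were higher, beside 20.1% of genes. With DHA, 0 of 4 were past the limit at 1 h, beside 4.66% of genes higher and 4.97% lower. At 4 h 1 of 4 was higher by totals, beside 9.64% of genes, or 2 with TMM factors, beside 19.4%. In none of these 3 lists was a gene past 1.5-fold between DHA and Veh at any hour, scaled by totals. At most 2.42% of all genes were past it in either direction there.

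Of 20 target genes of NF-κB, 10 of the 11 that passed the limit on cells were higher at 1 h in Veh, beside 4.15% of genes, and 0 were lower. Of the 9 that passed through Veh.LPS.0 itself 8 were higher. The other 2, Cxcl2 and Tnfaip3, passed through Veh.LPS.1 alone, so their calls were favoured by the limit. The 4 with the highest ratios were Cxcl2 (112 CPM in Veh.LPS.0 and 7543 in Veh.LPS.1), Tnfaip3 (4.10 and 166), Tnf (152 and 3799) and Nlrp3 (28.8 and 595). At 4 h 18 targets passed the limit on cells, of which 9 passed through Veh.LPS.4 alone, so that their direction was fixed by the limit. The 9 that passed through Veh.LPS.0 were higher too, beside 10.2% of genes. Il1a and Il1b, among those that passed through Veh.LPS.4 alone, had no UMI in Veh.LPS.0, which allows up to 0.030 CPM. With DHA, 9 of the 10 targets that passed through DHA.LPS.0 were higher at 1 h, beside 4.66% of genes, and 10 of 10 at 4 h, beside 9.64%. A further 1 at 1 h and 6 at 4 h passed through the LPS library alone. Between DHA and Veh, 0 of 11 targets were past the limit at 1 h, beside 1.33% of genes higher and 1.73% lower. Without LPS 1 of 10 was higher, beside 1.08% of genes. This was Cxcl2 (235 CPM with DHA and 112 in Veh), which passed the limit on cells through the DHA library alone. At 4 h 4 of 18 were lower with DHA, beside 2.42% of genes: Il6 at a ratio of 0.461 (0.412 to 0.515), Cxcl10 at 0.482 (0.443 to 0.524), Bcl2a1d at 0.584 (0.574 to 0.595) and Il1b at 0.612 (0.599 to 0.625). All 18 passed the limit on cells in Veh.LPS.4, while 16 targets passed it in DHA.LPS.0 or DHA.LPS.4. Some of the 18 thus passed through Veh.LPS.4 alone, and a lower call among those was favoured by the limit. The median log2 ratio of the 18 was -0.26, beside -0.11 for the members and 0.08 for all genes.

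**Figure D5:**
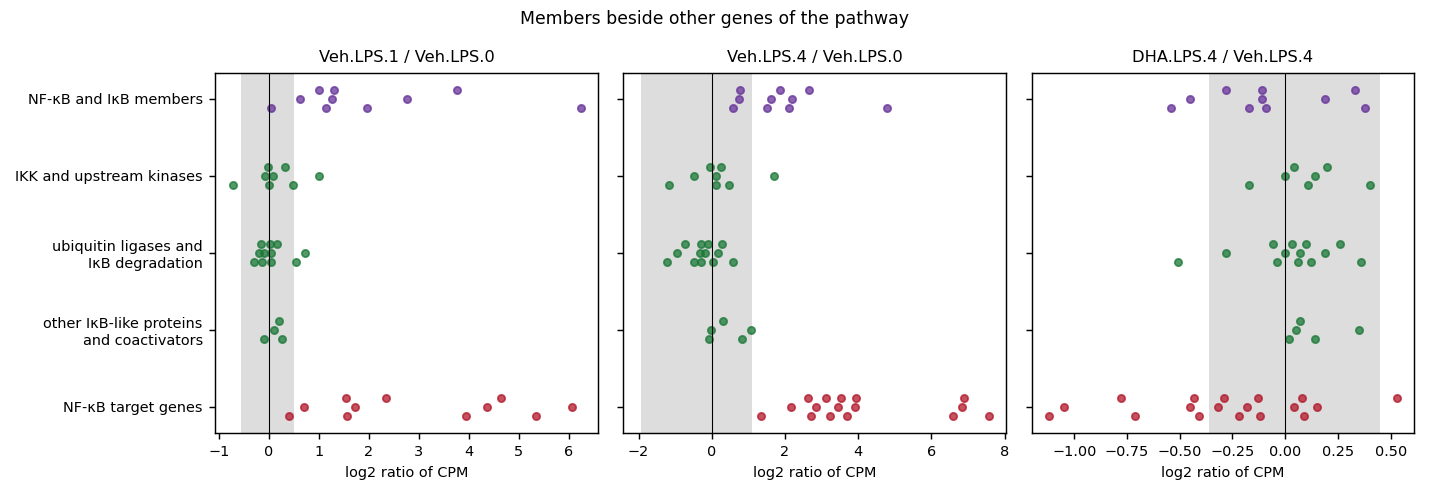
Log2 ratio of CPM of the members and of 4 lists of other pathway genes that passed the limit on cells (1 point per gene, rows spread slightly for sight; Il1a and Il1b, at 0 in Veh.LPS.0, are not drawn in the middle panel), at 1 h over 0 h and 4 h over 0 h in Veh and for DHA over Veh at 4 h. The grey band holds the 5th to 95th percentile of genes; in the first 2 panels members and targets lie mostly right of the band, and in the third 4 targets lie below -0.70.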

How the data were processed

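Single cells of 7 FLM cultures, 1 per condition, were captured with the 10x Chromium 3' kit (v3). The authors deposited raw UMI counts per gene and barcode, made with Cell Ranger against mm10. The submitters' processing notes and the file headers name version 3.1.0, while the paper's methods name another. Groups came from the sample labels. Barcodes with over 20000 UMIs, at least 2000 genes and under 20% mitochondrial UMIs were kept, as in the study's methods, and 22045775 to 125716982 UMIs per library remained. Doublets were not removed. UMI counts were summed over cells and scaled to CPM with Python 3.11.15 (scipy 1.17.1). Ratios, their counting intervals and the limit of 1.5-fold were checked on simulated Poisson counts, which hold no further variation between cells. The limit of 25% of cells was not part of that check. Coordinates are those of RefSeq for GRCm38.p6, and overlaps were read without strand. Members' sequences were not analysed here.

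The members and the lists were chosen with earlier results of these data known. All 10 members are named. From each pathway list, genes past both limits are named in some comparisons, up to the 4 of largest log2 ratio, and only counted in others. Core kinase subunits were added after their values were seen. For likeness, the 3 genes of highest r are named. Alternatives were TMM factors (edgeR 4.0.16), DESeq2 1.42.0 size factors, other limits on UMIs, mitochondrial share, fold and cells, every deposited barcode, and the mean of each cell's CPM. Every barcode scaled by UMIs outside mitochondrial genes was chosen after seeing the data.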

Additional observations from a re-analysis of the deposited data

Results flagged for a closer look

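The ratio of DHA to Veh lay on opposite sides of 1 in at least 1 pair of hours, beyond the counting interval, for 3 members. That interval leaves out variation between cells, and counts of Nfkbia varied between cells by more than the sampling of molecules. Whether the small differences of Nfkbia exceed that variation was not tested. Relb had log2 ratios of -0.21 at 0 h, -0.19 at 1 h and 0.38 at 4 h. Nfkbia had 0.07 at 0 h, 0.02 at 1 h and -0.09 at 4 h. Nfkbie had -0.23 at 0 h, 0.19 at 1 h and 0.19 at 4 h. With all deposited barcodes only Relb still changed side, at -0.45, -0.33 and 0.19 at 0, 1 and 4 h. Nfkbia was then at -0.25, -0.37 and -0.56, and Nfkbie at -0.42, -0.05 and -0.19. The differences between hours were not tested, since each hour had 1 library per treatment.

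The members were also measured in the barcodes left out of the comparisons, which were mostly those with a high mitochondrial share. Their summed level was 194 CPM (187 to 203) in the left-out barcodes of Con, 1584 in Veh.LPS.1, 1193 in DHA.LPS.1, 1208 in Veh.LPS.4 and 899 in DHA.LPS.4. Per 1000000 UMIs outside mitochondrial genes these sums were 326, 2139, 1857, 1828 and 1316. In the kept cells the sums were 349, 2620, 2457, 1953 and 1749 CPM in the same order. The LPS libraries were thus above Con in the left-out barcodes as well. On the same scale outside mitochondrial genes, Nfkb1 was higher in the left-out barcodes than in the kept cells of DHA.LPS.1 (241 and 123) while Nfkbia was lower (900 and 1645).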

How the results depend on the processing

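No count of members changed direction, and no ratio that passed 1.5-fold turned. With a fold limit of 2, Veh.LPS.0 against Con gave 1 member higher and 0 lower, Veh.LPS.4 against Veh.LPS.1 gave 2 and 2, and DHA.LPS.4 against DHA.LPS.1 gave 2 higher. Requiring a UMI in at least 50% of cells left 0 members lower in Veh.LPS.0 against Con. TMM factors and DESeq2 size factors each gave 2 members lower in Veh at 4 h against 1 h, beside 17.3% and 16.6% of genes. Each also gave 1 member, Nfkbiz, lower with DHA against Veh at 4 h, beside 2.89% and 2.96% of genes. Counting every barcode gave 2 members lower with DHA against Veh at 1 h and 3 at 4 h, and 1 at 4 h when scaled by UMIs outside mitochondrial genes, which was chosen after seeing the data. The other counts stayed within 1.5 times. The cause of these moves was not tested. Shares of all genes past the limits with every barcode, at a fold limit of 2 or at 50% of cells are not given here. Member counts under these settings therefore stand without a background. Stricter mitochondrial limits moved log2 ratios by at most -0.07, for Nfkb2 in DHA.LPS.1 over DHA.LPS.0, and every barcode moved Nfkbid in DHA.LPS.4 over DHA.LPS.0 by -0.68. No paired analysis was possible because each condition had 1 library and no test was made. Ratios of Nfkbiz and Nfkbid to a library without LPS rest on 199 to 1568 UMIs there.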
